A study of Mus musculus with 4 samples.

Results

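MITF, PAX3, SOX10, CREB1, TFAP2A, TFE3, TFEB, FOXD3, SOX5 and IRF4 are 10 transcription factors of melanocytes or of the neural crest, the embryonic tissue from which melanocytes descend. Their mRNAs were followed in mouse dorsal skin through every probe set that the array's annotation assigns to 1 of these genes and to no other. The rule gave 25 probe sets of 45037, for all 10 genes of 17097 named. A probe set is a group of short probes read together as 1 value per array. Creb1 had 6 probe sets, Sox5 had 4, Pax3 and Sox10 had 3 each, Mitf, Tfap2a and Irf4 had 2 each, and Tfe3, Tfeb and Foxd3 had 1 each.

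The skin came from male C3H mice, 8 weeks old, whose backs were shaved after 7 days of acclimation to bring resting hair follicles into growth. The 2 arrays named TCQA 1 and TCQA 2 held skin that received 1% TCQA on its surface daily, and the 2 arrays named Control 1 and Control 2 held skin that received the vehicle, Milli-Q water, all taken at day 30. TCQA is 3,4,5-tri-O-caffeoylquinic acid, a plant polyphenol in which a quinic acid core carries caffeic acid groups. Its stock was made in ethanol before dilution in water, while the vehicle is named as water only. The study kept 5 mice in each group. Nothing read here ties an array to 1 mouse or to a pool, so p-values cover array-to-array spread, part of which may be technical. The comparison asks whether melanocyte regulators differed between skin with and without TCQA.

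MITF is the central regulator of the melanocyte. It switches on the enzymes of melanin synthesis, and PAX3, SOX10 and the cAMP-responsive factor CREB1 act at its melanocyte promoter. FOXD3 holds neural crest cells back from the melanocyte fate, SOX5 modulates the action of SOX10, TFAP2A works beside MITF at pigment genes, and IRF4 acts with MITF at the tyrosinase gene. TFE3 and TFEB are close relatives of MITF that bind the same DNA element and are best known for driving lysosomal genes in many cell types.

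The promoters bear on these links, because cAMP signals reach Mitf through a CREB site. RefSeq start windows of assembly GRCm38.p6, each with 250 bases before and 50 after an annotated start, were held for 8 of the 10 genes (14 windows), with none for Pax3 and Sox10. The cAMP response element TGACGTCA, which reads the same on both strands, was in 2 of the 14 windows, 1 of Mitf and the only 1 of Foxd3. Over 32851 promoter windows, 1.79% held it. Both are printed here as the bases before the start, because they carry the element, with matched motifs in capitals. The Mitf sequence lies at chr6:97991533-97991782, plus strand, before the start farthest downstream of its 3 starts, where the melanocyte form of the mRNA is known to begin.
Mitf, downstream start: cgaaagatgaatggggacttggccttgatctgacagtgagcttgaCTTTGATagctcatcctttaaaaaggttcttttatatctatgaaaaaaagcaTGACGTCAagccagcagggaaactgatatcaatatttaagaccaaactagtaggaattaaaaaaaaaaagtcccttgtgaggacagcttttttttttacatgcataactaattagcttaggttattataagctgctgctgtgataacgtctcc
The Foxd3 sequence lies at chr4:99656049-99656298, plus strand, and its other capitals mark the E-box CACGTG, the element that MITF, TFE3 and TFEB can bind.
Foxd3: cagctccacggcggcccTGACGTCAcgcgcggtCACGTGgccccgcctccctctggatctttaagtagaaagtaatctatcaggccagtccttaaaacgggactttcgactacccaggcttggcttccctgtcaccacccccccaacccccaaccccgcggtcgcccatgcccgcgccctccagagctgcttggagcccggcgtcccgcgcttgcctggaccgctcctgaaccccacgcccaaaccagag
In the Mitf sequence, TGACGTCA begins 153 bases before the start, and CTTTGAT, a form of the LEF/TCF element through which β-catenin acts, begins 205 bases before it. CTTTGAT was in 3.73% of all promoter windows. In the Foxd3 sequence, TGACGTCA begins 233 bases before the start and CACGTG 217 bases before it, and CACGTG was in 7.15% of all promoter windows. Each motif was searched on both strands. The core of the M-box that MITF binds at pigment genes, CATGTG, was in none of the 14 windows and in 14.2% of all windows. Another LEF/TCF form, CTTTGAA, was in none of them and in 5.14% of all. The first of the SOX elements searched, ACAAAG, was in none of them and in 18.7% of all. The other SOX element, ACAATG, was in the Sox5 window, 154 bases before the start, and in 12.6% of all windows. No match overlapped another. A match is a run of letters and not a measured binding site.

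Control 1 stood apart from the other arrays, and this touches every value that follows. Its log2 values ran over a wider range, with 522 probe sets at 8 or more against 23 to 31 on the other arrays, and it correlated with them at r = 0.412 to 0.413 over all probe sets, where the other arrays correlated with each other at r = 0.884 to 0.956. All 5 skeletal muscle markers, all 5 keratinocyte markers, all 3 fibroblast markers and both adipocyte markers analysed here were highest on Control 1. The muscle markers had a median log2 value of 10.85 on Control 1 and of 1.81 to 2.08 on the other arrays, and the keratinocyte markers 8.67 against 2.37 to 2.86. Of the melanocyte markers Tyr, Tyrp1, Dct, Pmel and Mlana, 4 were lowest on Control 1. Mlana read 1.90 on Control 1 and 1.87 on TCQA 2. The melanocyte markers had a median of 2.08 on Control 1 and of 2.75 to 3.04 on the other arrays. All 5 macrophage or dendritic cell markers and all 3 B cell markers were lowest on Control 1 as well. Read from 1 probe set per gene, 53.6% of all named genes were lowest on Control 1 and 33.9% highest. By rank within an array, the melanocyte markers had a median percentile of 42.6 on Control 1 and of 57.6 to 70.5 on the others, and the keratinocyte markers, which define skin, 99.3 on Control 1 and 43.2 to 61.7 on the others. Among the keratinocyte markers, Krt10 and Krt15 ranked at percentiles 11.8 to 38.6 on the arrays other than Control 1. Krt14 and Trp63 ranked there at 43.2 to 77.6, and Krt5 at 96.1 to 97.9. In whole skin, fewer cells of a type and less RNA per cell cannot be told apart, nor told from RNA quality or array processing. The cause was not tested, and neither control array is known to be the sounder one. Each difference is therefore given against both controls, against Control 1 alone and against Control 2 alone.

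None of the 25 probe sets differed between TCQA and control skin by limma at an adjusted p under 0.05 (Benjamini-Hochberg over all probe sets), and neither did any of the 45037 (0.0%). The smallest adjusted p among the 25 was 0.923. At an unadjusted p under 0.05, limma gave 0 of the 25 and 141 of all probe sets, and an unmoderated test gave 0 of the 25 and 754 of all. At the thresholds of the study (2-fold with an unadjusted p no higher than 0.05) none of the 25 was higher and none lower, against 0.135% of all probe sets higher and 0.122% lower in limma (61 and 55 probe sets). The unmoderated test gave 12 higher and 14 lower over the whole array, and again none of the 25. Of the 25 log2 differences, 19 were positive and 6 negative, or 76.0% positive against 61.0% of all probe sets. Their median was 0.19, and that of all probe sets 0.12.

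The signs depended on which control array was used. Against Control 1 alone, 20 of the 25 differences were positive (80.0%, against 66.3% of all probe sets). Their median was 0.53 (0.33 over all probe sets). Against Control 2 alone, 12 were positive and 13 negative (48.0% positive, against 46.7% of all probe sets). Their median was then -0.03 (-0.02 over all probe sets). On a log2 scale, the 2 control arrays lay a median of 0.74 apart over the 25 probe sets and the 2 TCQA arrays 0.36 apart, while the TCQA mean lay 0.17 from Control 2. Control 2 lay between the 2 TCQA arrays, ends included, for 13 of the 25 probe sets from 9 genes, against 39.0% of all probe sets. Control 1 was the lowest of the 4 arrays for 19 of the 25, against 58.3% of all probe sets, and the highest for 5, against 28.0%.

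**Figure D1:**
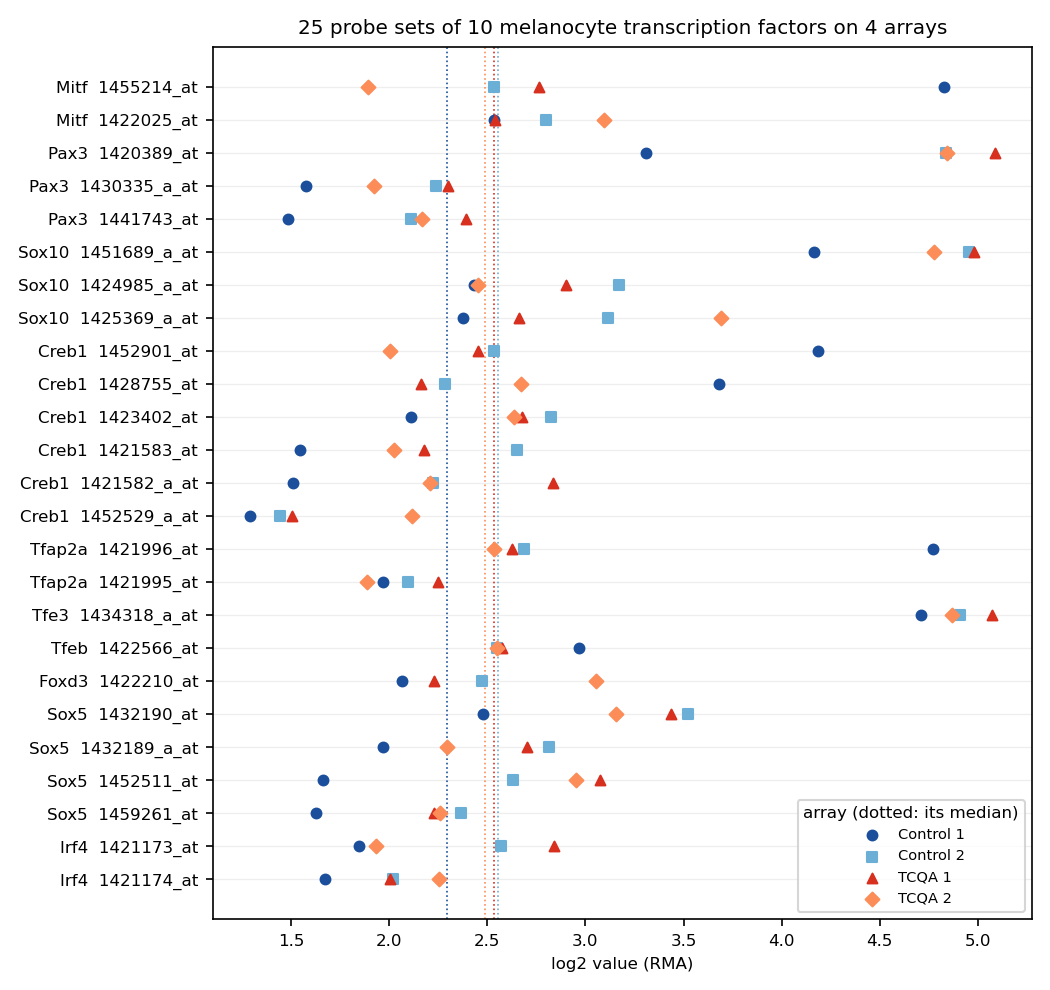
Log2 value (horizontal axis) of each of the 25 probe sets on each of the 4 arrays, 1 symbol per array, with the array medians as dotted lines. Control 1 is the lowest array for 19 probe sets and stands far to the right for 1 Mitf, 2 Creb1 and 1 Tfap2a probe sets, while Control 2 lies between the TCQA arrays, ends included, for 13.

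Mitf was measured by 2 probe sets that disagreed. Probe set 1455214_PM_at read 4.83 and 2.53 on Control 1 and 2, and 2.76 and 1.89 on TCQA 1 and 2. Only Control 1 was high, and Control 2 lay between the TCQA arrays. The control mean was 3.68 ± 1.62 and the TCQA mean 2.33 ± 0.62 (SD, n = 2 arrays each), a log2 difference of -1.35 with a 95% interval from -3.69 to 0.98 (adjusted p = 0.923, limma). The TCQA mean was 2.50 below Control 1 on the log2 scale and 0.20 below Control 2.

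The other Mitf probe set, 1422025_PM_at, read 2.53 and 2.80 on Control 1 and 2, and 2.54 and 3.10 on TCQA 1 and 2. Here 1 array of each group was low and 1 was higher, so the groups overlapped throughout. The log2 difference was 0.15, with an interval from -0.85 to 1.16 (adjusted p = 0.95, limma), and against Control 2 alone it was 0.02. The log2 differences of the 2 probe sets had opposite signs and lay 1.50 apart, and against Control 2 alone 0.22 apart. The annotation names a sequence record for each probe set and no exon, so which of the Mitf starts a probe set follows was not known here.

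Over the 4 arrays, the single-gene probe sets whose pattern was most like 1455214_PM_at, among 7281 with a range at least 0.5 times as wide, were those of Ube2v1, Thap7 and Aak1, at a Pearson r from 0.99992 to 0.99999. Ube2v1 read 6.51 and 3.79 on Control 1 and 2, and 4.08 and 3.04 on TCQA 1 and 2. In all, 381 of the 7281 had an r above 0.99, and with 4 points, of which Control 1 is 1 high point, such likeness was common. For 1422025_PM_at the closest were 4632415L05Rik, Slc30a10 and 1700013G24Rik, and 77 of 27252 had an r above 0.99. No factor of the set was among these closest patterns.

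Pax3, a paired-box factor that keeps melanocyte stem cells and activates Mitf, had both TCQA arrays above both controls in 2 of its 3 probe sets. Probe set 1420389_PM_at read 3.31 and 4.84 on Control 1 and 2, and 5.09 and 4.84 on TCQA 1 and 2. Control 1 was the low array, and TCQA 2 exceeded Control 2 by less than the rounding shown. The control mean was 4.07 ± 1.08 and the TCQA mean 4.97 ± 0.17 (SD, n = 2 each), a log2 difference of 0.89 with an interval from -0.72 to 2.50 (adjusted p = 0.923, limma). The log2 difference was 1.66 against Control 1 alone and 0.13 against Control 2 alone. After a further quantile normalization it was 1.30 against both controls, past 2-fold, and still 0 of the 25 probe sets passed the study's thresholds.

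The other Pax3 probe sets were lowest on Control 1 as well. Probe set 1441743_PM_at read 1.48 and 2.11 on Control 1 and 2, and 2.39 and 2.17 on TCQA 1 and 2, again with both TCQA arrays above both controls. Probe set 1430335_PM_a_at read 1.58, 2.24, 2.30 and 1.92 in the same order, with TCQA 2 below Control 2. All 3 log2 differences were positive, from 0.20 to 0.89. Against Control 2 alone they ran from -0.13 to 0.17.

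Sox10, a neural crest factor that activates Mitf and is also carried by Schwann cells, had no probe set whose groups were separate. Probe set 1451689_PM_a_at read 4.16 and 4.95 on Control 1 and 2, and 4.98 and 4.77 on TCQA 1 and 2, and only Control 1 was low. A further quantile normalization moved its log2 difference from 0.32 to 0.84. Probe set 1424985_PM_a_at read 2.43, 3.17, 2.90 and 2.45 in the same order, and Control 2 was highest. Probe set 1425369_PM_a_at read 2.38, 3.12, 2.66 and 3.69, and the TCQA arrays lay on both sides of Control 2. The log2 differences were 0.32, -0.12 and 0.43, and against Control 2 alone they were -0.08, -0.49 and 0.06. The Schwann cell markers analysed here, S100b, Ngfr and Mbp, had a median log2 difference of 0.22, and 0.10 against Control 2. Their part in the Sox10 values was not tested.

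Creb1, which carries cAMP signals from the melanocortin receptor to Mitf and is present in most cell types, gave the widest disagreement among its probe sets. Probe set 1452901_PM_at read 4.19 and 2.54 on Control 1 and 2, and 2.45 and 2.00 on TCQA 1 and 2. Both TCQA arrays lay below both controls, and TCQA 1 lay close to Control 2. Its log2 difference was -1.13, with an interval from -2.87 to 0.60 (adjusted p = 0.923, limma), and it was -1.96 against Control 1 and -0.31 against Control 2.

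Probe set 1428755_PM_at, which cites the same sequence record, read 3.68, 2.28, 2.16 and 2.67 in the same order of arrays. Control 1 was again the only high array, and Control 2 lay between the TCQA arrays. The other 4 Creb1 probe sets had Control 1 as their lowest array. Probe set 1452529_PM_a_at read 1.29, 1.44, 1.50 and 2.12, with both TCQA arrays above both controls, and probe set 1421582_PM_a_at read 1.51, 2.22, 2.83 and 2.21. Probe sets 1423402_PM_at and 1421583_PM_at read 2.82 and 2.65 on Control 2, above both TCQA arrays in each case. The 6 log2 differences ran from -1.13 to 0.66, 4 positive and 2 negative. Against Control 2 alone they ran from -0.55 to 0.37, with 3 of each sign.

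Tfap2a, a factor of neural crest and of epidermal keratinocytes, repeated the disagreement seen for Mitf. Probe set 1421996_PM_at read 4.77 and 2.69 on Control 1 and 2, and 2.63 and 2.54 on TCQA 1 and 2. Control 1 was far above the rest, and Control 2 lay only just above the TCQA arrays. Its log2 difference was -1.15, with an interval from -3.18 to 0.89 (adjusted p = 0.923, limma), and against Control 2 alone it was -0.11. Probe set 1421995_PM_at, which cites the same sequence record, read 1.97, 2.10, 2.25 and 1.89 in the same order, and the groups overlapped. The log2 differences of the 2 probe sets lay 1.18 apart against both controls and 0.08 apart against Control 2 alone. All 5 keratinocyte markers were also highest on Control 1, as were 33.9% of all named genes. The part of keratinocytes in the Tfap2a value was not tested.

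Tfe3 and Tfeb are the lysosomal relatives of Mitf, and neither had separate groups. Tfe3 probe set 1434318_PM_a_at read 4.71 and 4.91 on Control 1 and 2, and 5.07 and 4.87 on TCQA 1 and 2. Control 2 lay between the TCQA arrays, and the log2 difference was 0.16 with an interval from -0.72 to 1.04 (adjusted p = 0.938, limma). By rank within an array Tfe3 was at percentile 88.1 on Control 1 and 97.4 to 98.1 on the others, and a further quantile normalization gave a log2 difference of 0.84. Tfeb probe set 1422566_PM_at read 2.97 and 2.55 on Control 1 and 2, and 2.57 and 2.55 on TCQA 1 and 2. Apart from Control 1 its values were nearly equal, and the log2 difference was -0.20 against both controls and 0.01 against Control 2 alone.

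Foxd3, which restrains the melanocyte fate, read 2.06 and 2.47 on Control 1 and 2, and 2.23 and 3.06 on TCQA 1 and 2 (probe set 1422210_PM_at). The TCQA arrays lay on both sides of Control 2 and 0.83 apart, more than the log2 difference of 0.37 between the groups. Mitf and Foxd3, the genes whose printed sequences hold TGACGTCA, had log2 differences of -1.35 and 0.15 for Mitf and 0.37 for Foxd3, and none passed the test.

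Sox5, a SOX factor without an activating domain, had 4 probe sets, each with Control 1 as the lowest array. Probe set 1452511_PM_at read 1.66 and 2.63 on Control 1 and 2, and 3.08 and 2.95 on TCQA 1 and 2, and both TCQA arrays lay above both controls. This was the largest positive difference against Control 2 among the 25 probe sets, at 0.38 on the log2 scale with an interval from -0.34 to 1.10, and against both controls it was 0.87 (interval from -0.34 to 2.08, adjusted p = 0.923, limma). The other 3 Sox5 probe sets were higher on Control 2 than on either TCQA array, and their log2 differences against Control 2 were between -0.32 and -0.12. Against both controls all 4 were positive, from 0.11 to 0.87.

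Irf4, which acts with MITF at the tyrosinase gene and is also a factor of B cells, had 2 probe sets with low values. Probe set 1421173_PM_at read 1.85 and 2.57 on Control 1 and 2, and 2.84 and 1.93 on TCQA 1 and 2, and probe set 1421174_PM_at read 1.67, 2.02, 2.00 and 2.25. In both, Control 2 lay between the TCQA arrays. The log2 differences were 0.18 and 0.28 against both controls, and -0.19 and 0.11 against Control 2. The B cell markers Cd79a, Cd79b and Ms4a1 were each lowest on Control 1, as were 53.6% of all named genes. The part of B cells in the Irf4 values was not tested.

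In all, both TCQA arrays lay above both controls for 4 of the 25 probe sets (2 of Pax3, 1 of Sox5 and 1 of Creb1), against 17.9% of all probe sets. Both lay below both controls for 2 (1 of Tfap2a and 1 of Creb1), against 10.9%. Creb1 thus had a probe set of each kind. Ranks within an array were low for some of these. Creb1 1452529_PM_a_at lay at percentiles 8.4, 6.1, 8.1 and 33.1 on Control 1, Control 2, TCQA 1 and TCQA 2. Pax3 1441743_PM_at lay at 16.7, 31.4, 44.2 and 35.4 in the same order, while Pax3 1420389_PM_at lay at 72.9 to 98.1. Depending on the array, 12 to 15 of the 25 lay above the array's median. Whether dim probe sets detected their mRNA was not tested.

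Against Control 1 alone, several factors passed thresholds, and so did much of the array. The mean of the TCQA arrays was at least 2-fold above Control 1 for 3 probe sets (Pax3, Creb1 and Sox5), against 12.9% of all probe sets, and at least 2-fold below it for 4 (Mitf, Tfap2a and 2 of Creb1), against 17.9%. In a limma fit of the TCQA arrays against this 1 array, Pax3 1420389_PM_at (adjusted p = 0.0159) and Sox5 1452511_PM_at (adjusted p = 0.027) were higher, 2 of 25 against 7.34% of all probe sets. Mitf 1455214_PM_at (adjusted p = 0.0142), Creb1 1452901_PM_at (adjusted p = 0.0128) and Tfap2a 1421996_PM_at (adjusted p = 0.00504) were lower, 3 of 25 against 16.1%. This fit takes its spread from the 2 TCQA arrays only, and limma draws each probe set's spread toward that of all probe sets. It assumes that the lone control varies like the TCQA arrays.

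Against Control 2 alone, none of the 25 passed. None was 2-fold above or below Control 2, against 0.16% and 0.375% of all probe sets, and none reached an adjusted p under 0.05 in limma, as for all probe sets (0.0%). At an unadjusted p under 0.05 there were 0 of the 25 and 538 of all. The largest sizes were the log2 differences of -0.55 for Creb1 1421583_PM_at and -0.49 for Sox10 1424985_PM_a_at. The log2 difference against Control 2 was -0.20 for Mitf 1455214_PM_at and 0.01 for Tfeb. With 1 control array the spread comes from the 2 TCQA arrays only and holds none between controls. Whether a 2-fold change is excluded cannot be decided from these sizes. Against both controls the Tfeb interval ran from -1.12 to 0.73, and a 2-fold fall is inside it.

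**Figure D2:**
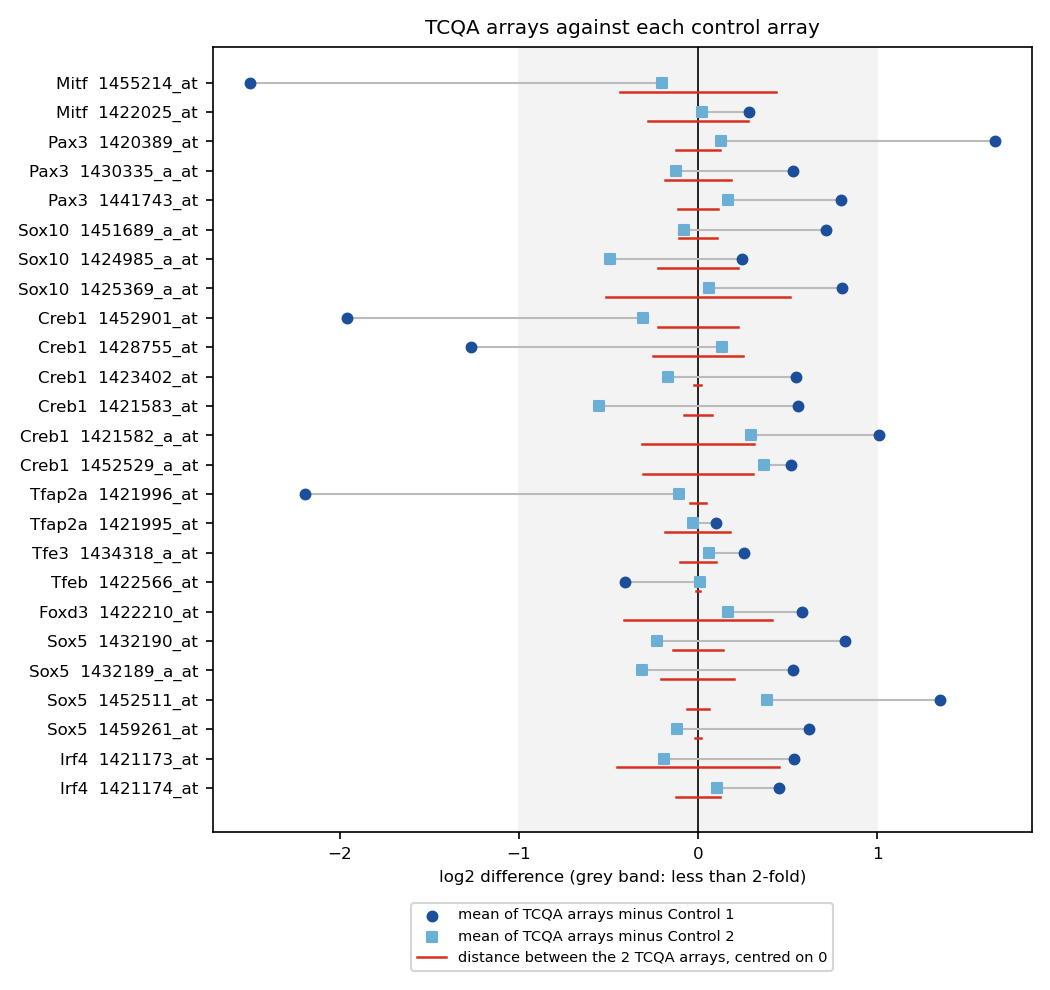
Log2 difference between the mean of the 2 TCQA arrays and Control 1 (circles) or Control 2 (squares) for each probe set, with the distance between the 2 TCQA arrays as a bar centred on 0. All 25 squares lie inside the grey band of less than 2-fold, while 7 circles lie outside it, 3 above and 4 below.

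**Figure D3:**
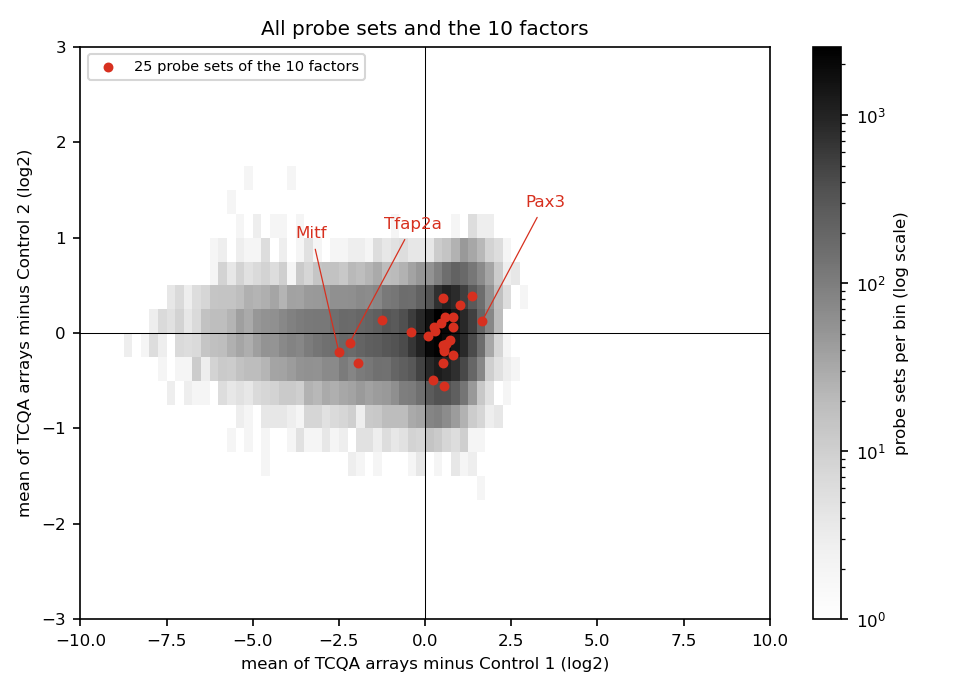
All 45037 probe sets by their log2 difference of the TCQA mean from Control 1 (horizontal) and from Control 2 (vertical), as counts per bin on a log grey scale, with the 25 probe sets of the factors as points. The array spreads far more along the Control 1 axis than along the Control 2 axis, and the factors lie within that spread.

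Probe sets of a gene agreed about as often as elsewhere on the array. Of the 30 pairs that 7 of the factors allow, 18 had log2 differences of the same sign (60.0%), against 59.6% of 19058 pairs from 7180 genes. Against Control 2 alone it was 12 of 30 pairs (40.0%, against 50.8%), and against Control 1 alone 20 of 30 (66.7%, against 62.5%). The pairs lay a median of 0.57 apart on the log2 scale, and 0.46 over all pairs. All pairs had the same sign for Sox5 (6 of 6), Pax3 (3 of 3) and Irf4 (1 of 1), against 1 of 3 for Sox10, 7 of 15 for Creb1 and none of the 1 pair each for Mitf and Tfap2a. Pairs of a gene share probe sets, so they are not independent. Even the 6 pairs that cite the same sequence record lay 0.10 to 1.18 apart, with the same sign in 5 against both controls and in 2 against Control 2 alone.

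Genes linked to the factors were read from 1 probe set each, the one highest on average, and none in any list passed the test (limma, adjusted p under 0.05), nor reached an unadjusted p under 0.05. The same choice over 17097 named genes gave a median log2 difference of 0.08, with 56.1% positive, and -0.04 against Control 2. Choosing by the mean favours probe sets that are high on Control 1.

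Of 17 MITF target genes analysed here, 13 had positive differences, with a median of 0.42. Control 1 was lowest for 12 of the 17, against 53.6% of all named genes. Against Control 2 the median was -0.09, with 6 positive and 11 negative. Met, a receptor tyrosine kinase of many epithelial cells, had the largest difference, with 5.03 and 1.74 on Control 1 and 2, and 1.99 and 1.33 on TCQA 1 and 2. Mlph, which links melanosomes to their motor, read 1.89, 2.68, 2.98 and 3.22 in the same order. Tyr, the rate-limiting enzyme of melanin synthesis, read 2.08, 2.70, 2.90 and 3.41. Both TCQA arrays lay above both controls for 3 of the 17 (Tyr, Mlph and Slc45a2) and below both for Bcl2, or 17.6% and 5.88%, against 16.0% and 13.6% of all named genes read the same way. Tyr and Mlph had log2 differences of 0.77 (SE 0.42) and 0.81 (SE 0.42) against both controls and 0.46 and 0.42 against Control 2 alone.

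Of 14 genes that feed signals into Mitf, 9 had positive differences, with a median of 0.23 and 0.02 against Control 2. Ctnnb1, which encodes β-catenin, read 8.83 and 2.84 on Control 1 and 2, and 3.32 and 3.05 on TCQA 1 and 2. Control 1 was its only high array, and its log2 difference was -2.65 against both controls and 0.35 against Control 2. Stat3 read 4.47, 5.28, 5.37 and 6.10, and Crtc1, a CREB coactivator, read 2.93, 3.87, 4.04 and 3.99, with both TCQA arrays above both controls for each. Tcf7l2 lay so too, which makes 3 of the 14, or 21.4%, against 16.0% of all named genes, and none lay below both. The Stat3 and Crtc1 log2 differences were 0.85 (SE 0.48) and 0.62 (SE 0.45), and against Control 2 alone 0.45 and 0.15.

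The lysosomal targets of TFEB and TFE3 were mostly lower in TCQA skin than on Control 1. Of 13 analysed here, 12 had negative differences, with a median of -1.09. The same number were highest on Control 1, against 33.9% of all named genes. Tfeb and Tfe3 themselves differed between the control arrays by 0.42 and 0.20 on the log2 scale, Tfeb higher and Tfe3 lower on Control 1. Against Control 2 the median was 0.01, with 7 positive and 6 negative. Ctsb, a lysosomal protease, read 6.71 on Control 1 and 2.63 to 2.65 on the other arrays. Rragd and Lamp1 read 6.77 and 8.12 on Control 1, and at most 2.34 and 4.53 on the other arrays.

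Of 11 relatives of the factors, 4 had positive and 7 negative differences, with a median of -0.07 and -0.02 against Control 2. Atf1, a relative of Creb1, read 6.08 on Control 1 and 1.77 to 2.23 on the other arrays, and Tfap2b, a relative of Tfap2a, 5.38 against 2.50 to 2.81. Foxd2, a relative of Foxd3, went the other way with 2.14 and 3.71 on Control 1 and 2, and 3.94 and 4.02 on TCQA 1 and 2. Both TCQA arrays lay above both controls for 3 of the 11 relatives (27.3%) and below both for 1 (9.09%). Over all named genes the shares were 16.0% and 13.6%. Of 13 other neural crest factors, 7 were positive and 6 negative, with a median of 0.03 and 0.05 against Control 2. Both TCQA arrays lay above both controls for 4 of these 13 (30.8%) and below both for 2 (15.4%). After Tfap2b, which is on this list too, the largest differences were those of Id2 (-1.10) and Msx2 (0.83), and Msx2 read 2.27, 3.01, 3.39 and 3.55 in the same order of arrays.

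**Figure D4:**
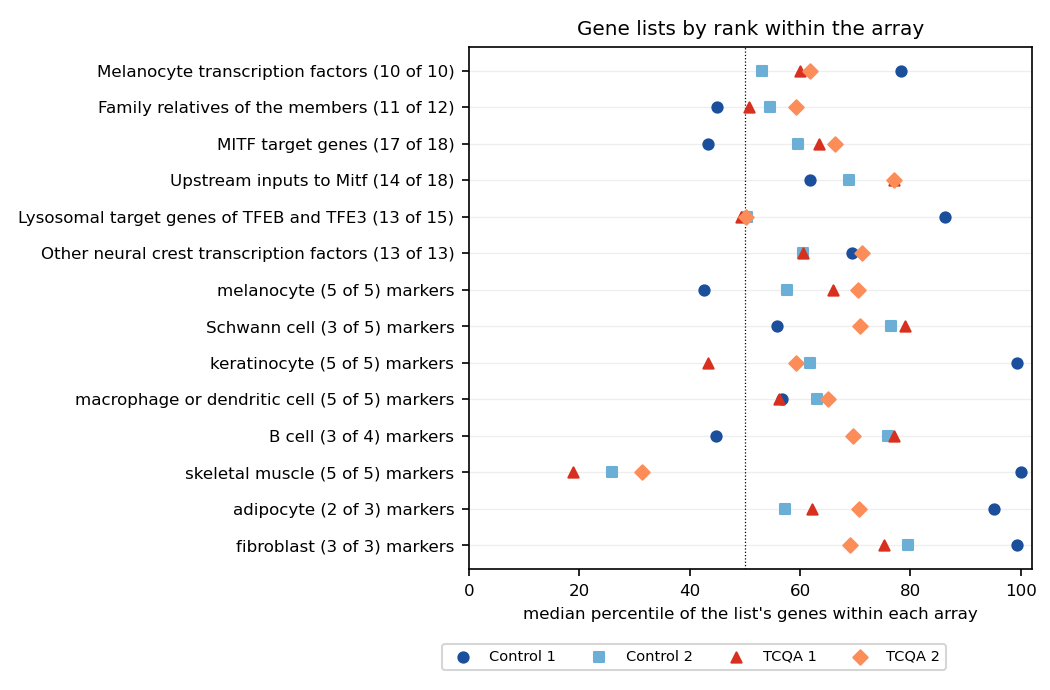
Median percentile rank, within each array, of the genes of each list, with the number analysed here in brackets and the array's middle as a dotted line. Control 1 (dark circles) stands to the right for lysosomal, keratinocyte, muscle, adipocyte and fibroblast genes and for the 10 factors. It stands to the left for MITF targets, inputs to Mitf, relatives of the factors, and melanocyte, Schwann and B cell markers. For other neural crest factors and macrophage or dendritic cell markers it lies between the other arrays. The 10 factors, at the highest-mean probe set of each, have a median percentile of 78.3 on Control 1 and 53.0 to 61.7 on the others. By log2 value, 6 of these probe sets are lowest on Control 1 and 4 highest. Choosing by the mean favours probe sets that are high on Control 1.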

How the data were processed

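Affymetrix mouse PM array strips, 4 in all and 2 per group, measured total RNA of treated dorsal skin. The deposited values are on a log2 scale, 1 for every probe set on every array. The submitters' processing notes list RMA, which adjusts background, normalizes and sums up probes, beside the programs Transcriptome Analysis Console and Affymetrix Expression Console, with no version. Whether all arrays were normalized together is not given in the sources used here, nor is the role of each tool. Of 45141 probe sets, 104 Affymetrix controls were left out, and 45037 were tested without a filter on dim probe sets. The platform annotation gave 28898 of them 1 gene, 551 several genes, and 15588 no name here. RefSeq's gene table for GRCm38.p6 held identifiers of 28689 single-gene probe sets.

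Groups were taken from the sample titles. TCQA was compared with control by a two-sided limma test (version 3.58.1, R 4.3.3, functions lmFit and eBayes), with Benjamini-Hochberg adjustment over 45037 probe sets, and, for each control array alone, by the same fit without the other control. Log2 differences are TCQA minus control. With 2 arrays in each group, the smallest p of an exact permutation test is 0.333. The factors, gene lists, motifs and rules were chosen with earlier results of these data known. Named are the 10 factors with all their probe sets, up to 3 genes of each list with the largest differences, and the 3 patterns most like each Mitf probe set. Lists used the probe set with the highest mean per gene. Some genes of the lists are not reported here. The macrophage or dendritic cell markers had a median difference of 0.10, and the adipocyte markers -1.83. Promoter letters came from RefSeq windows. The limma step was tested on simulated data. The number of arrays limits the precision. The labels give no pairing of mice. Same-numbered arrays deviated at r = -0.124 from their group means.

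Alternatives were a further quantile normalization, median centring, a brightness filter, limma's trend and robust options, an unmoderated one-way analysis of variance as the study's methods name it, a replicate block, leaving out each array, and 3 choices of probe sets. A replicate block that crosses the numbers was added after the data were seen.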

Additional observations from a re-analysis of the deposited data

How the results depend on the processing

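No probe set of the 10 factors passed an adjusted p under 0.05 under a further quantile normalization, median centring, the brightness filter, limma's trend and robust options, the unmoderated analysis of variance, the other choices of probe sets, or without any 1 array other than Control 2. The study's thresholds gave 0 under each of these too. Without Control 2 limma called 5 after adjustment and 7 at the study's thresholds, so that leaving out 1 array gave 0 to 5 and 0 to 7. The replicate block gave 0 probe sets at both thresholds, and so did the crossed pairing. The number of probe sets with both TCQA arrays beyond both controls was 6 (4 above and 2 below, against 17.9% and 10.9% of all probe sets). It was 12 to 24 with 1 array left out, where fewer arrays can overlap. Without Control 1 it was 12, and for the other 13 Control 2 lay between the TCQA arrays, as for 39.0% of all probe sets. Shares over all probe sets are not given for the other arrays left out, so these counts are not read as a trait of the factors. The count was 2 with the mean of each gene's probe sets and 3 with the probe set of highest mean, over 10 genes in place of 25 probe sets. Of the 3, 1 lay above and 2 below, against 16.0% and 13.6% of all named genes. The median log2 difference of the 25 probe sets was 0.19, and 0.10 with median centring, 0.13 with a further quantile normalization, -0.03 without Control 1 and 0.53 without Control 2.

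Signs of single log2 differences moved more. A further quantile normalization turned Creb1 1421583_PM_at to -0.14, Tfap2a 1421995_PM_at to -0.10 and Sox5 1432189_PM_a_at to -0.0075, and median centring turned Creb1 1421583_PM_at to -0.085 and Tfap2a 1421995_PM_at to -0.054. Without Control 1, 11 of the 25 changed sign, without Control 2 1, and without TCQA 1 or TCQA 2 4 each. With 1 array left out, the log2 difference ran for Creb1 from -0.55 to 0.56 (1421583_PM_at), -0.17 to 0.55 (1423402_PM_at) and -1.26 to 0.13 (1428755_PM_at). It ran for Sox10 from -0.49 to 0.24 (1424985_PM_a_at), -0.083 to 0.95 (1425369_PM_a_at) and -0.075 to 0.71 (1451689_PM_a_at), and for Sox5 from -0.32 to 0.53 (1432189_PM_a_at), -0.23 to 0.82 (1432190_PM_at) and -0.12 to 0.62 (1459261_PM_at). It ran from -0.042 to 0.79 for Foxd3, -0.28 to 0.63 for Irf4 1421173_PM_at, -0.13 to 0.43 for Mitf 1422025_PM_at, -0.13 to 0.53 for Pax3 1430335_PM_a_at, -0.15 to 0.22 for Tfap2a 1421995_PM_at and -0.40 to 0.010 for Tfeb. The cause was not tested. The 10 other probe sets, among them Mitf 1455214_PM_at, Creb1 1452901_PM_at and Tfap2a 1421996_PM_at, kept their sign with any 1 array left out. Those named shrank without Control 1, from -1.35 to -0.20 for Mitf, -1.13 to -0.31 for Creb1 and -1.15 to -0.11 for Tfap2a. The fits without another array kept Control 1, the highest array for each of them.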
